A study of Mus musculus with 16 samples.

Results

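The nuclear genes of the mitochondrial respiratory chain were followed through 4 genotype comparisons in mouse liver. A probe belonged to the set when its gene name in the array files began as the subunits of complexes I to V are named (Nduf with a, b, c, s or v and a digit, Sdha to Sdhd, Uqcr, Cox4 to Cox8, or Atp5). This rule took 114 of 41174 non-control probes, for 82 gene names: 35 of complex I, 4 of complex II, 7 of complex III, 19 of complex IV and 17 of complex V, as named. Of these, 79 genes had a probe above background and were tested among 16656 genes; the probes of Cox4i2, Cox7b2 and Cox8c were above background in 0 of 24 channels. The rule also took 3 genes that are not subunits: Emc8 (listed as Cox4nb), which belongs to a complex of the endoplasmic reticulum membrane, Dmac2l (listed as Atp5s) and Dmac2 (listed as Atp5sl). Ndufa4 was counted with complex I by its name, although its product is now regarded as a subunit of complex IV.

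Liver RNA came from 4 kinds of mice. Double knockout mice (DKO; Atg7F/F:Mx1-Cre:Nrf2-/-) lacked both Atg7, which autophagy needs, and Nrf2, a transcription factor of the oxidative stress response encoded by Nfe2l2. Atg7 conditional knockout mice (Atg7 cKO; Atg7F/F:Mx1-Cre) lacked Atg7 only, Nrf2 knockout mice (Nrf2 KO; Nrf2-/-) lacked Nrf2 only, and wild-type mice served as controls. Per the labels, mice aged 8 weeks were injected with pIpC, controls included, and livers were taken 4 weeks later. A growth label can also be read as treatment for 4 weeks. pIpC switches on the Mx1 promoter that drives Cre, so Atg7 was removed in every cell type in which that promoter answers, not in hepatocytes alone, whereas Nrf2 was missing from conception. The labels do not say how many mice each RNA came from, nor whether the wild-type mice carried floxed alleles or Cre.

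Each array held 2 genotypes in 2 colours, and each pair of RNAs was hybridised again with the dyes exchanged. Such a dye-swapped pair is called an experiment here and counted as 1 replicate, which gave 2 experiments for each comparison: experiments 3 and 6 for DKO against wild type, 2 and 5 for Atg7 cKO against wild type, 1 and 4 for Nrf2 KO against wild type, and 7 and 8 for DKO hybridised directly against Atg7 cKO. Nothing says that the 2 experiments used different mice, so p-values measure the spread between experiments only. All values below are log2 ratios, the first-named genotype over the second, so that a negative value means a lower level in the first-named genotype. Experiments 7 and 8 carry the scanner's own scaling, which subtracts background without the offset used for experiments 1 to 6, so sizes for dim probes are not on 1 scale between these sets. A gene was called changed when its p-value from limma, adjusted over all genes tested by the method of Benjamini and Hochberg, was under 0.05.

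The respiratory chain passes electrons from NADH (complex I) and succinate (complex II) through ubiquinone to complex III, then through cytochrome c to complex IV, which reduces oxygen. Complexes I, III and IV pump protons, and complex V, the ATP synthase, makes ATP as the protons flow back. All complex II subunits, and most subunits of the other complexes, are encoded in the nucleus, and hepatocytes, which depend on oxidative metabolism for urea, glucose and bile acid synthesis, are rich in them.

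The labels held for the deleted genes. The brightest of 3 Nfe2l2 probes had log2 ratios between -4.10 and -3.31 in experiments with DKO or Nrf2 KO over wild type, and -6.31 and -6.68 in DKO over Atg7 cKO; the brighter Atg7 probe, close to background after deletion, lay between -0.82 and -0.73 in the 4 experiments with Atg7 removed against wild type, and a second Atg7 probe, dim in all of them, lay between -0.16 and 0.01. In experiments 7 and 8, where both genotypes lack Atg7, the brighter Atg7 probe had -0.03 and 1.03 on the scanner's scale. The second Atg7 probe had 0.82 and 0.21 there. Xist RNA was near background in experiments 1 to 3 and high in experiments 4 to 6 in both channels, which splits the arrays into a low and a high set. Each genotype was set against wild type once in either set, and the 2 values given for it are also the within-set values. Experiments 1 and 2, 3 and 4, and 5 and 6 shared a slide. The liver label was borne out by Alb, Apoa2, Ttr and Cps1, all above background, yet their levels were not constant: of 10 hepatocyte markers measured, 8 were lower and 1 higher in DKO (median -0.74), and 8 were lower in Atg7 cKO (median -1.05). Of 14 macrophage markers, 14 were higher in DKO (median 1.64) and 13 in Atg7 cKO (median 1.59). In whole liver, a smaller share of hepatocytes and less RNA per hepatocyte cannot be told apart, and the part of this change in cell markers in the results below was not tested.

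Respiratory chain genes tended to be lower in DKO livers, with medians below 0 in all 5 complexes. In DKO against wild type, 65 of 79 members were lower and 1 was higher, with a median of -0.50 and a range of -1.07 to 0.59, while the median over all genes tested was 0.00. Of the members 82.3% were called lower, against 15.9% of all genes, of which 21.2% were called higher. In both DKO experiments the value was below 0 for 73 members, which is 92.4% of them, against 39.4% of all genes. The 2 experiments had medians of -0.56 and -0.44, and the count of calls leaned on the first of them: without experiment 3, 23 members were called, 22 of them lower. Of all genes, 17.2% were called without experiment 3.

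In Atg7 cKO against wild type the shift was smaller and depended on how the arrays were scaled. With loess scaling, which levels each array among probes of similar brightness, 36 of 79 members were lower and 3 were higher (median -0.24, range -0.94 to 0.28), with 16.2% of all genes called lower and 23.3% called higher. The experiments had medians of -0.16 and -0.34, and 57 members lay below 0 in both, which is 72.2% of them, against 39% of all genes. Without experiment 5, 8 members were called, and without experiment 1 or experiment 4, 22 were. Of all genes, 19.3% were called without experiment 5 and 30.8% without experiment 1 or experiment 4. With the slide as a block 57 members were called in DKO and 33 in Atg7 cKO, and with the low or high Xist set as a block 68 were called in DKO and 41 in Atg7 cKO. The shares of all genes called in DKO and Atg7 cKO were 32.6% and 36.1% with the slide. With the set they were 44.6% and 47.1%. The members are bright: the median member stood at the percentile of 96.4 in brightness among the genes tested. When each array was instead shifted by 1 number so that the median gene tested stood at 0, with no levelling by brightness, the median of the members was -0.06, and of the 36 members called lower under loess 7 were still called lower and 2, Ndufa11 and Cox6b1, lay above 0, while 5 members were called higher. Over all genes tested, 50.7% were called in Atg7 cKO in this setting, in either direction. Below, median centring without further words means this setting. Centring on the median of all spots raised the median of all genes tested to 0.14 in DKO and 0.21 in Atg7 cKO, and the members then had medians of -0.32 in DKO and 0.15 in Atg7 cKO, so that the sign of the Atg7 cKO median turned while it stayed below that of all genes. Under it 1 of the 36 was still called lower and 16 lay above 0, with 8 members called higher, and in DKO 20 of the 65 were still called lower and 1 lay above 0. Of all genes, 46% were then called in Atg7 cKO and 36.6% in DKO. In DKO the centring on genes tested left the median at -0.46, with 52 of the 65 still called lower and 0 above 0. The scanner's own log ratios gave medians of -0.44 in DKO and -0.21 in Atg7 cKO, where the median of all genes was -0.06 in DKO and -0.08 in Atg7 cKO, and kept 44 of the 65 and 18 of the 36 calls. With these ratios 42.6% of all genes were called in DKO and 40.6% in Atg7 cKO.

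**Figure D1:**
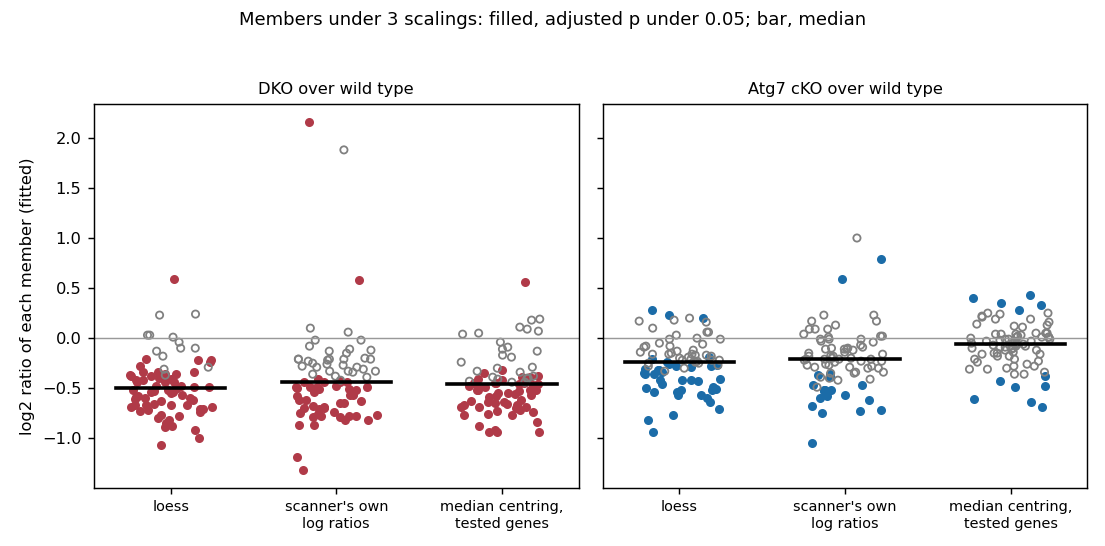
Fitted log2 ratio of each of the 79 members (vertical axis) in DKO over wild type (left) and Atg7 cKO over wild type (right) under 3 scalings of the arrays. Filled points passed an adjusted p of 0.05, open points did not, and bars are medians. In these 3 settings the DKO medians lie between -0.50 and -0.44, whereas the Atg7 cKO median is -0.24 with loess and -0.06 with median centring. Centring over all spots, which is not drawn, gave -0.32 in DKO and 0.15 in Atg7 cKO.

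In Nrf2 KO against wild type 0 of 79 members were called by limma (0.012% of all genes were). An unadjusted p under 0.05 was seen for 2 members and for 615 of all 16656 genes. The member values lay between -0.09 and 0.30 with a median of 0.05. In DKO set directly against Atg7 cKO, 70 of 79 members lay below 0 and the median was -0.26, but 3 were called lower and 0 higher. That is 3.8% of the members, where 8.09% of all genes were called lower in this comparison and 6.72% higher. The standing of the members against all genes turned with the fit: when single arrays were fitted, with a dye effect and the experiment as a random block, 33 of 79 members were called lower and 2 higher, with 25.6% of all genes called in either direction.

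**Figure D2:**
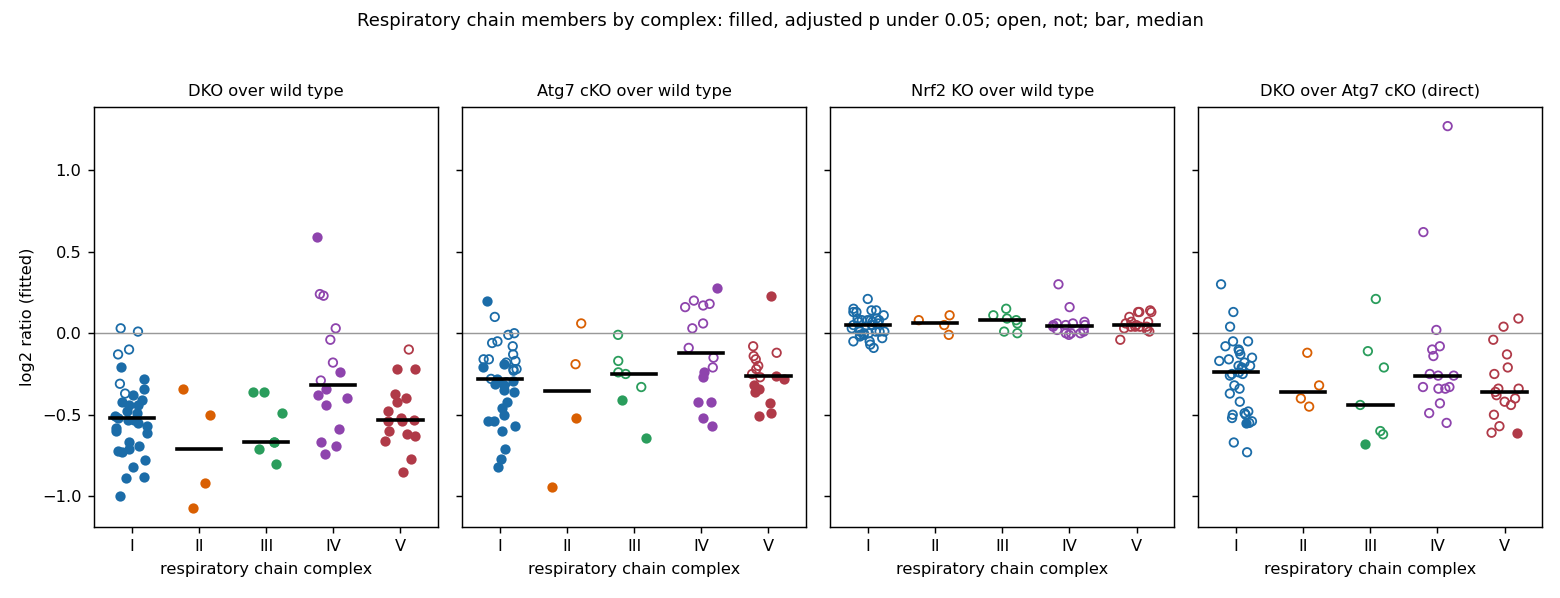
Fitted log2 ratio of each member (points, vertical axis) by complex (horizontal axis) in the 4 comparisons. Filled points passed an adjusted p of 0.05 and bars are the medians of each complex, which lie between -0.71 and -0.31 in DKO over wild type and between 0.04 and 0.08 in Nrf2 KO over wild type.

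The complexes were set side by side by their medians. In DKO against wild type the medians were -0.71 for complex II, -0.67 for complex III, -0.53 for complex V, -0.52 for complex I and -0.31 for complex IV. In Atg7 cKO they were -0.35, -0.25, -0.26, -0.28 and -0.12 in the same order of complexes under loess; with median centring over the genes tested they were -0.13, -0.09, -0.08, -0.06 and 0.01, so that complex IV turned sign. With centring over all spots they were all above 0 in Atg7 cKO, from 0.08 for complex II to 0.22 for complex IV, where all genes had 0.21. Complex IV counts Emc8 and 4 tissue isoforms, and its 11 other genes had medians of -0.40 in DKO and -0.24 in Atg7 cKO. No test was made of the difference between complexes, which hold 4 to 35 genes.

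**Figure D3:**
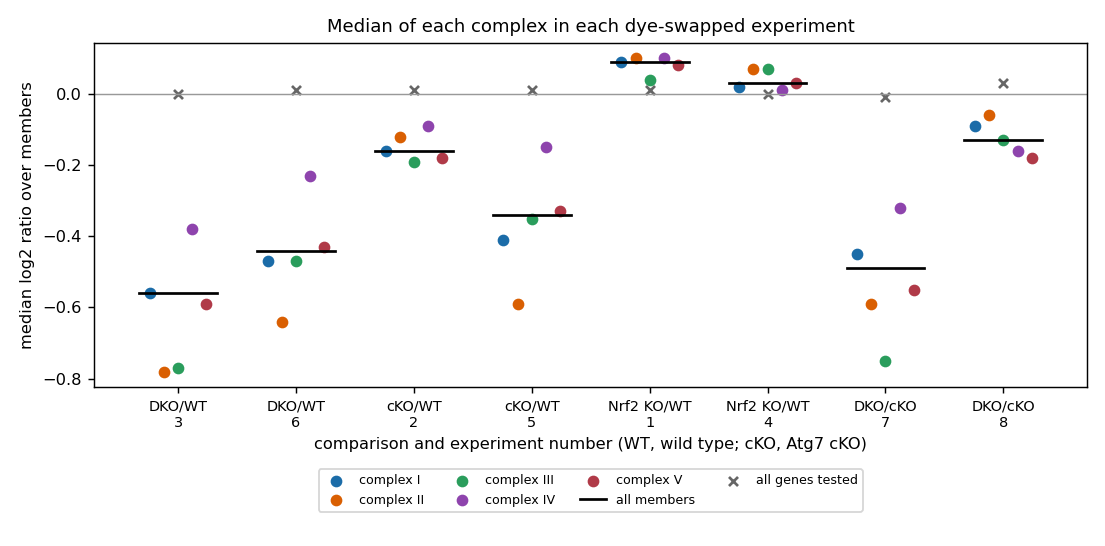
Median log2 ratio (vertical axis) over the members of each complex (coloured points), over all members (bars) and over all genes tested (crosses) in each of the 8 dye-swapped experiments (horizontal axis; 1 to 6 with loess, 7 and 8 on the scanner's own scale). Experiments 3 and 7 have the lowest member medians, -0.56 and -0.49, and all genes stay between -0.01 and 0.03.

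Complex I takes electrons from NADH. With loess, 29 of its 35 measured genes were lower and 0 higher in DKO, and 18 were lower and 1 was higher in Atg7 cKO. In DKO 24 were lower with median centring, 22 with the scanner's log ratios and 9 with centring over all spots, with 0 higher in each. Its 7 nuclear core subunits, which carry the flavin and the iron-sulphur clusters that lead electrons to ubiquinone, were all lower in DKO with loess (7 of 7, values from -0.82 to -0.55), of which Ndufs8 and Ndufv2 lost the call with median centring, and 3 of 7 were lower in Atg7 cKO.

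Ndufv1, the subunit that binds NADH and flavin, had ratios of -0.97 and -0.66 in DKO and -0.27 and -0.46 in Atg7 cKO. Both genotypes were below wild type in both experiments, and the DKO values were lower than either Atg7 cKO value. The fit gave -0.82 ± 0.09 (SE, n = 2, adjusted p = 0.00288) in DKO and -0.36 ± 0.09 (n = 2, adjusted p = 0.0305) in Atg7 cKO, of which the second was not called with median centring over the genes tested (-0.16, adjusted p = 0.266).

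Ndufs1, the largest iron-sulphur subunit, stood at -0.92 and -0.63 in DKO and at -0.19 and -0.27 in Atg7 cKO. It was called in DKO (-0.78, adjusted p = 0.00223) and not in Atg7 cKO (-0.23, adjusted p = 0.0719). Ndufs7, which holds the last cluster before ubiquinone, had the same form, with -0.69 and -0.66 in DKO and 0.02 and -0.34 in Atg7 cKO. Ndufs8, an iron-sulphur subunit close to the quinone site, was called in both genotypes, at -0.57 in DKO and -0.54 in Atg7 cKO. Both calls were lost with median centring (adjusted p of 0.0695 in DKO and 0.117 in Atg7 cKO). Ndufs3 and Ndufv2 were lower in DKO (-0.58 and -0.55; adjusted p = 0.0543 for Ndufv2 with median centring) and not called in Atg7 cKO (-0.16 and -0.30).

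The accessory subunits were counted by the letter in their names, which follows how the bovine enzyme was taken apart, and the difference between letters was not tested. All 10 Ndufb genes, whose products sit in the membrane arm, were lower in DKO, with a median of -0.61 and a range of -1.0 to -0.41, and Ndufb7 among them lost the call with median centring (adjusted p = 0.0587). In Atg7 cKO 8 of the 10 were lower, with a median of -0.40. Of the 13 Ndufa genes, 8 were lower in DKO (median -0.38), and in Atg7 cKO 5 were lower and 1 was higher (median -0.13).

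Ndufb10 had ratios of -1.01 and -0.75 in DKO and -0.67 and -0.97 in Atg7 cKO. Ndufb9 had -1.02 and -0.76 in DKO and -0.58 and -0.97 in Atg7 cKO. For both genes the experiments of the 2 genotypes overlapped, and both were called in DKO (-0.88 for Ndufb10 and -0.89 for Ndufb9) and in Atg7 cKO (-0.82 and -0.77). Their Atg7 cKO calls held with median centring over the genes tested, at -0.64 for Ndufb10 and -0.61 for Ndufb9, as did those of Ndufb11 (-0.43) and Ndufa6 (-0.49). With centring over all spots these 4 calls were lost, since 0 complex I genes were then called lower in Atg7 cKO.

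Ndufb5 was the lowest complex I member in DKO with loess, at -1.18 and -0.83, against -0.30 and -0.62 in Atg7 cKO, and the groups did not overlap. The fitted values were -1.0 ± 0.13 (SE, n = 2, adjusted p = 0.00397) in DKO and -0.46 ± 0.13 (n = 2, adjusted p = 0.0403) in Atg7 cKO, where median centring gave -0.21 (adjusted p = 0.275). Ndufa9, an accessory subunit that holds a nucleotide, fell by 0.73 in DKO and by 0.57 in Atg7 cKO (adjusted p = 0.051 in Atg7 cKO with median centring). Ndufa6, a member of the LYR protein family near the quinone site, ran the other way. It had -0.53 and -0.23 in DKO, against -0.68 and -0.74 in Atg7 cKO, so that the cKO values were the lower ones, although the direct comparison (0.30, adjusted p = 0.178) did not pass.

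A few complex I genes were not called in DKO. Ndufs4, an accessory subunit whose loss causes Leigh-like disease in mice, had -0.11 and 0.17 in DKO and 0.00 and 0.00 in Atg7 cKO. Ndufa2 had -0.20 and -0.07 in DKO and 0.00 and -0.12 in Atg7 cKO. Ndufa8, a protein of the intermembrane space, was not called in DKO (-0.02 and 0.05) and was higher in Atg7 cKO, at 0.23 and 0.16 (adjusted p = 0.0264).

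**Figure D4:**
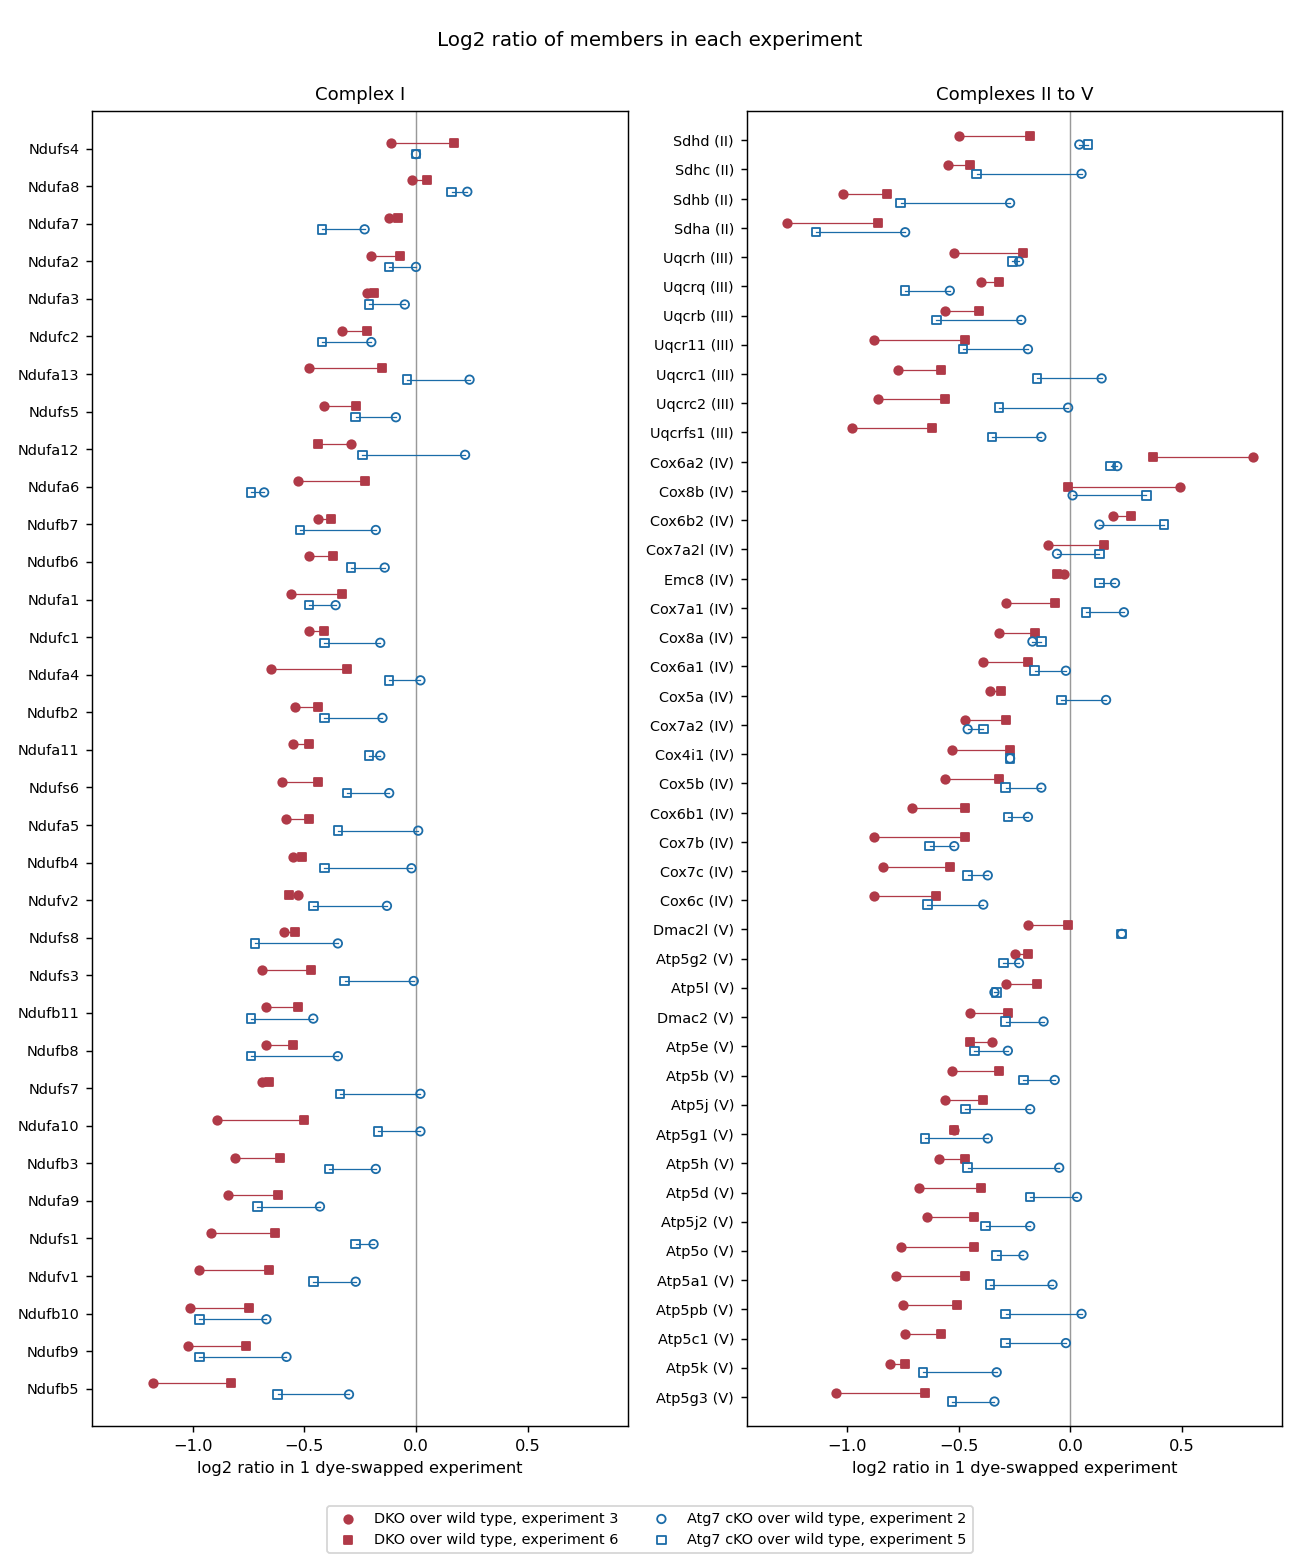
Log2 ratio of single members (rows, 1 gene left out) in each experiment, with DKO over wild type as filled red points and Atg7 cKO over wild type as open blue points; circles are experiments 3 and 2, squares experiments 6 and 5, and lines join the 2 experiments. The DKO pairs of Uqcrc1, Atp5c1 and Ndufs1 lie left of their Atg7 cKO pairs, whereas those of Ndufb10, Ndufb9, Sdha and Atp5g1 overlap.

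Complex II, succinate dehydrogenase, belongs to both the respiratory chain and the tricarboxylic acid cycle. With loess all 4 subunits were lower in DKO, and 2 of 4 in Atg7 cKO. In DKO 2 were lower with median centring, 3 with the scanner's log ratios and 2 with centring over all spots. Sdha, the flavoprotein that oxidises succinate, was the lowest of all members in both genotypes with loess. With the scanner's log ratios Ndufb5 was lower in DKO, at -1.32 against -1.19 for Sdha. The signal of the Sdha probe on the scale common to all arrays was 577 and 643 in DKO, against 1390 and 1170 in the wild-type channels of the same experiments. In Atg7 cKO it was 681 and 531, against 1140 and 1170 in wild type. The groups did not overlap. The log2 ratios were -1.27 and -0.86 in DKO and -0.74 and -1.14 in Atg7 cKO, with fits of -1.07 ± 0.13 in DKO (SE, n = 2, adjusted p = 0.00387) and -0.94 ± 0.13 in Atg7 cKO (n = 2, adjusted p = 0.00537). This probe lies on chromosome 13 at 74460146 to 74460205 in mm9. A second Sdha probe, annotated to the same transcript and lying at 74465756 to 74465815, gave -0.88 in DKO (adjusted p = 0.0067) and -0.31 in Atg7 cKO (adjusted p = 0.125). The call of Sdha in Atg7 cKO therefore rested on 1 of its 2 probes.

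Sdhb, the iron-sulphur subunit, had -1.02 and -0.82 in DKO and -0.27 and -0.76 in Atg7 cKO. It was called in DKO (-0.92) and in Atg7 cKO (-0.52, adjusted p = 0.0312; -0.31, adjusted p = 0.175, with median centring). The membrane anchors Sdhc and Sdhd, which hold the quinone site, changed less. Sdhc had -0.55 and -0.45 in DKO and 0.05 and -0.42 in Atg7 cKO. Sdhd had -0.50 and -0.18 in DKO and 0.04 and 0.08 in Atg7 cKO. Both were called in DKO with loess, at -0.50 (adjusted p = 0.0221) for Sdhc and -0.34 (adjusted p = 0.0267) for Sdhd, and missed the threshold with median centring (adjusted p of 0.0714 and 0.0559).

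Complex III passes electrons to cytochrome c. All 7 members were lower in DKO with loess and with median centring, 5 with the scanner's log ratios and 3 with centring over all spots, and 2 of 7 were lower in Atg7 cKO with loess. Uqcrc1 is a core protein of the complex. Its signal was 2360 and 2270 in DKO, against 4020 and 3390 in wild type, and 4300 and 2950 in Atg7 cKO, against 3910 and 3260 in wild type. Only the DKO livers stood apart from wild type. The ratios were -0.77 and -0.58 in DKO (fit -0.67 ± 0.09, SE, n = 2, adjusted p = 0.00411) and 0.14 and -0.15 in Atg7 cKO (fit -0.01 ± 0.09, n = 2, adjusted p = 0.965).

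Uqcrfs1, the Rieske iron-sulphur protein, had -0.98 and -0.62 in DKO and -0.13 and -0.35 in Atg7 cKO. Uqcrc2, the other core protein, had -0.86 and -0.56 in DKO and -0.01 and -0.32 in Atg7 cKO. In both genes the DKO values lay below the Atg7 cKO values, and the Atg7 cKO fits were not called (adjusted p of 0.123 and 0.254). Uqcr11, one of the smallest subunits, had -0.67 in DKO and -0.33 in Atg7 cKO (adjusted p = 0.082).

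The small subunits Uqcrq and Uqcrb were those called in both genotypes. Uqcrq had -0.40 and -0.32 in DKO and -0.54 and -0.74 in Atg7 cKO, with fits of -0.36 in DKO (adjusted p = 0.0117) and -0.64 in Atg7 cKO (adjusted p = 0.00228), and both calls held with median centring. With centring over all spots the Atg7 cKO call was lost, since 0 complex III genes were then called lower in that genotype. Uqcrb had -0.49 in DKO and -0.41 in Atg7 cKO, of which the second was lost with median centring (-0.21). Uqcrh, which helps cytochrome c to bind, had -0.36 in DKO (adjusted p = 0.0217) and -0.25 in Atg7 cKO (adjusted p = 0.0613).

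Complex IV, cytochrome c oxidase, has several subunits with more than 1 gene, one for most tissues and one for heart, muscle, lung or testis. Of 16 members measured, 9 were lower and 1 was higher in DKO with loess, and 6 were lower and 1 was higher in Atg7 cKO. In DKO 7 were lower and 1 higher with median centring, and 4 lower and 2 higher with the scanner's log ratios. Centring over all spots gave 2 lower and 3 higher in DKO. The 8 isoforms of most tissues included 6 that were lower in DKO (median -0.39) and 4 that were lower in Atg7 cKO (median -0.19). These 8 include Ndufa4, which is not among the 16 because it was counted with complex I. Ndufa4 was called lower in DKO (-0.48) and not called in Atg7 cKO (-0.05). Of 8 tissue isoforms listed, 4 were measured. Among these Cox8b was well above background on 0 wild-type arrays and Cox6a2 on 0 of 2 in experiments 5 and 6, so that a lower level could not have been seen for them, and their direction is not set against that of the isoforms of most tissues.

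Cox6c had -0.88 and -0.60 in DKO and -0.39 and -0.64 in Atg7 cKO, Cox7c had -0.84 and -0.54 in DKO and -0.37 and -0.46 in Atg7 cKO, and Cox7b had -0.88 and -0.47 in DKO and -0.52 and -0.63 in Atg7 cKO. All 3 are small subunits that surround the catalytic core. All 3 were called in both genotypes, at -0.74, -0.69 and -0.67 in DKO and -0.52, -0.42 and -0.57 in Atg7 cKO, and of the Atg7 cKO calls that of Cox7b held with median centring (-0.38, adjusted p = 0.0386). With centring over all spots that call was lost too, since 0 complex IV genes were then called lower in Atg7 cKO. Cox6b1, which faces the intermembrane space, had -0.71 and -0.47 in DKO and -0.19 and -0.28 in Atg7 cKO. It was lower in DKO (-0.59, adjusted p = 0.00349), while its Atg7 cKO value of -0.24 (adjusted p = 0.0492) became 0.01 with median centring. Cox4i1, which binds ATP and regulates the enzyme, had -0.40 in DKO and -0.27 in Atg7 cKO, and Cox7a2 had -0.38 in DKO and -0.42 in Atg7 cKO, with both Atg7 cKO calls lost with median centring (adjusted p of 0.509 and 0.0913). Cox7a2l, which ties complexes III and IV into supercomplexes, was at 0.03 in both genotypes, with adjusted p of 0.869 in DKO and 0.835 in Atg7 cKO, and reached 0.28 in Atg7 cKO (adjusted p = 0.0284) with median centring.

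The member that rose in DKO was Cox6a2, the isoform of heart and skeletal muscle. It had ratios of 0.82 and 0.37 in DKO and 0.21 and 0.18 in Atg7 cKO, with a fit of 0.59 ± 0.11 (SE, n = 2, adjusted p = 0.0118) in DKO. Its probe was dim: the signal was 126 and 82.5 in DKO and 71.1 and 63.9 in wild type, and the probe was well above background on both DKO arrays of each experiment but on 1 of 2 wild-type arrays in experiment 3 and 0 of 2 in experiment 6. The size therefore depended on the background: the scanner's log ratios gave 2.16 in DKO (adjusted p = 0.00256) and 0.79 in Atg7 cKO (adjusted p = 0.0456). Skeletal muscle markers moved with it in experiment 3, where the 5 measured of 9 listed (Acta1, Mb, Myh2, Myh4 and Tnni2) lay between 0.82 and 2.03, and in experiment 7, on the scanner's scale, where they lay between 2.53 and 5.07 and Cox6a2 at 1.99. In experiment 6 they lay between -0.17 and 0.52, and in experiment 8 between -0.87 and 0.85, with Cox6a2 at 0.56. The part of muscle RNA in the Cox6a2 value was not tested. Cox8b, another muscle isoform, was above background in 4 of 24 channels, had 0.49 and -0.01 in DKO and 0.01 and 0.34 in Atg7 cKO, and gave 4.42 and -3.18 in the 2 direct experiments, which have no common sign. Cox7a1, a further isoform of muscle, was above background in all 24 channels and had -0.29 and -0.07 in DKO and 0.24 and 0.07 in Atg7 cKO. It was called in neither with loess, and in Atg7 cKO with median centring (0.35, adjusted p = 0.017).

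**Figure D5:**
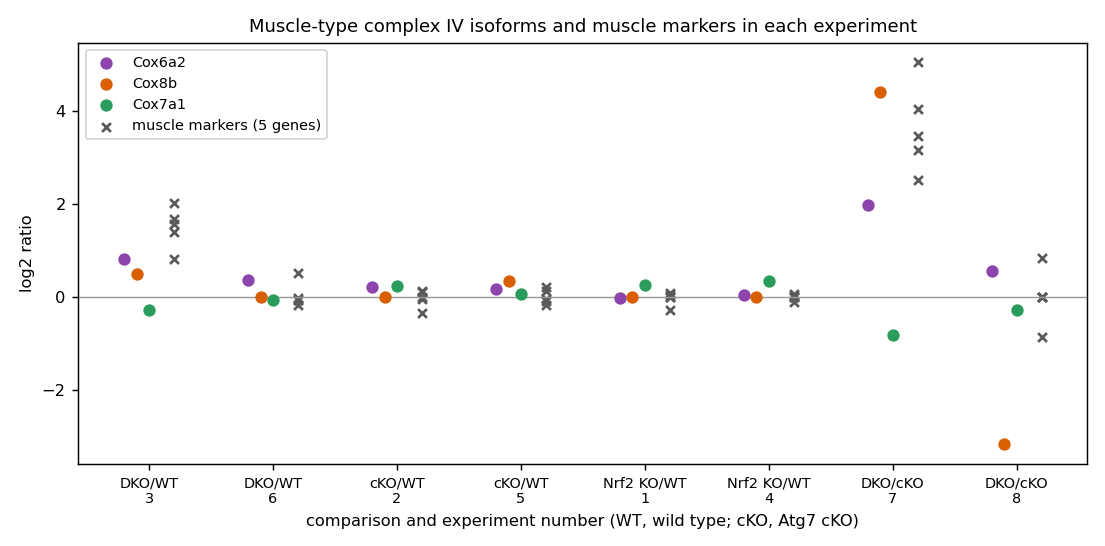
Log2 ratio (vertical axis) of the muscle-type complex IV isoforms Cox6a2, Cox8b and Cox7a1 (coloured points) and of 5 skeletal muscle markers (crosses) in each experiment (horizontal axis). The markers are at 0.82 or above in experiments 3 and 7, where Cox6a2 is at 0.82 and 1.99, although experiments 7 and 8 are on the scanner's scale and sizes of these dim probes cannot be set against those of experiments 1 to 6.

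Cox6b2, the testis isoform of Cox6b1, was the tissue isoform called in Atg7 cKO with loess. It had 0.19 and 0.27 in DKO (fit 0.23, adjusted p = 0.0728) and 0.13 and 0.42 in Atg7 cKO (fit 0.28, adjusted p = 0.0416; adjusted p = 0.0727 with median centring). Its sign was opposite to that of Cox6b1 in all 4 experiments with loess, but Cox6b1 was at 0.01 in Atg7 cKO with median centring and at 0.22 with centring over all spots. Emc8, the gene the rule took although it is no subunit, was called in neither genotype with loess (-0.04 in DKO and 0.17 in Atg7 cKO), and in Atg7 cKO with median centring (0.33, adjusted p = 0.0188).

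Complex V, the ATP synthase, joins a catalytic F1 head to a membrane ring. Of 17 members, 16 were lower and 0 higher in DKO with loess, and 8 were lower and 1 was higher in Atg7 cKO. In DKO 12 were lower with median centring, 10 with the scanner's log ratios and 4 with centring over all spots, with 0 higher in each. The gene that rose in Atg7 cKO was Dmac2l (0.23 and 0.23, adjusted p = 0.0368), a coupling factor that is no part of the enzyme itself. It was not called in DKO (-0.19 and -0.01). A second Dmac2l probe was not called in Atg7 cKO (0.15, adjusted p = 0.0823). The 5 genes of the F1 head were all lower in DKO (5 of 5, median -0.54), and 1 of 5 was lower in Atg7 cKO (median -0.16).

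Atp5a1, the alpha subunit of the head, had -0.78 and -0.47 in DKO and -0.08 and -0.36 in Atg7 cKO. Atp5b, the catalytic beta subunit, had -0.53 and -0.32 in DKO and -0.07 and -0.21 in Atg7 cKO. Atp5c1, the gamma subunit that turns inside the head, had -0.74 and -0.58 in DKO and -0.02 and -0.29 in Atg7 cKO. In all 3 genes both DKO values were below both Atg7 cKO values. The fits in DKO were -0.62, -0.42 and -0.66, all called, and those in Atg7 cKO were -0.22, -0.14 and -0.16, none of which was called (adjusted p from 0.136 to 0.194). Atp5d, the delta subunit, behaved likewise (-0.54 in DKO and -0.08 in Atg7 cKO). Atp5e, the epsilon subunit, was the one called in both (-0.40 in DKO and -0.36 in Atg7 cKO). Neither Atp5e call held with median centring (adjusted p of 0.057 in DKO and 0.321 in Atg7 cKO). When each probe was fitted by limma, a second Atp5a1 probe was called lower in Atg7 cKO (-0.41, adjusted p = 0.0459). The missing call of Atp5a1 in Atg7 cKO, and the count of 1 of 5, therefore rested on the probe chosen.

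The proton-carrying ring is built from 1 mature protein that 3 genes encode. Atp5g3 had -1.05 and -0.65 in DKO and -0.34 and -0.53 in Atg7 cKO. Atp5g1 had -0.52 and -0.52 in DKO and -0.37 and -0.65 in Atg7 cKO. Atp5g2 had -0.25 and -0.19 in DKO and -0.23 and -0.30 in Atg7 cKO. All 3 were lower in both genotypes with loess. A second Atp5g2 probe was called in neither genotype (-0.14, adjusted p = 0.13 in DKO, and -0.15, adjusted p = 0.0999 in Atg7 cKO). With median centring Atp5g1 (adjusted p = 0.0879), Atp5g2 (0.615) and Atp5g3 (0.102) lost the Atg7 cKO call, and Atp5g2 the DKO call too (adjusted p = 0.154). The fall of Atp5g3 was deeper in DKO (-0.85) than in Atg7 cKO (-0.43), but the direct comparison missed the threshold (-0.57, adjusted p = 0.0524). For Atp5g1 and Atp5g2 it gave -0.04 and 0.04.

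In the peripheral stalk and the membrane part, Atp5pb (subunit b) had -0.75 and -0.51 in DKO and 0.05 and -0.29 in Atg7 cKO, and was called in DKO only (-0.63, adjusted p = 0.00877, against -0.12, adjusted p = 0.402, in Atg7 cKO). Atp5k (subunit e), which joins synthase dimers, had -0.81 and -0.74 in DKO and -0.33 and -0.66 in Atg7 cKO. It was called in both genotypes (-0.77 in DKO and -0.49 in Atg7 cKO), the second not with median centring (adjusted p = 0.123). Atp5l (subunit g) fell by 0.22 in DKO and by 0.34 in Atg7 cKO, and neither call held with median centring.

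No member passed the test in Nrf2 KO, as stated above. The 3 with the largest values were Cox7a1 (0.25 and 0.35, fit 0.30 ± 0.08, SE, n = 2), Ndufa12 (0.42 and 0.00, fit 0.21) and Cox7b (0.16 and 0.16, fit 0.16), all with an adjusted p of 1. In both experiments 37 members were above 0 and 2 below, and of all genes 23.9% were below 0 in both. The sizes were small: the experiment medians were 0.09 and 0.03. Sdha was at 0.01 and 0.08, and Uqcrc1 at 0.03 and -0.03.

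Whether Nrf2 loss adds to Atg7 loss was asked directly in experiments 7 and 8, whose medians over the members were -0.49 and -0.13. Cell markers also differed between them. The median was 3.48 in experiment 7 and 0.00 in experiment 8 for skeletal muscle, 0.62 and -0.06 for macrophages, and -0.31 and 0.55 for hepatocytes. In the fit of the direct comparison, 5 of 9 lymphocyte and neutrophil markers were called higher and 0 lower in DKO (median 1.1). Of all genes, 6.72% were called higher there. The part of these markers in the member values was not tested. The 3 members called lower in DKO against Atg7 cKO were Ndufa11, Uqcrc1 and Atp5c1. Ndufa11, a membrane-arm subunit of complex I, had -0.70 and -0.41 (fit -0.55 ± 0.11, SE, n = 2, adjusted p = 0.0267). Uqcrc1 had -0.94 and -0.43 (fit -0.68 ± 0.15, n = 2, adjusted p = 0.0364). Atp5c1 had -0.81 and -0.41 (fit -0.61 ± 0.14, n = 2, adjusted p = 0.0414). These fits share 1 spread estimate over all 8 experiments, all on the scanner's own scale, and with experiments 7 and 8 alone 0 members were called by limma (8 at an unadjusted p under 0.05). Without experiment 7, 0 were called. Without experiment 8, 1 was called lower and 1 higher, and of the 3 genes only Uqcrc1 was still called.

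The same difference taken through wild type pointed the same way with fewer calls. DKO over wild type minus Atg7 cKO over wild type had a median of -0.22 over the members, with 69 of 79 below 0. Of the members 33 had an unadjusted p under 0.05, where 3659 of all 16656 genes did. By limma 0 members were called, against 4.96% of all genes. With median centring over the genes tested, that median was -0.38, with 74 of 79 below 0 and 0 called. Uqcrc1 came nearest (-0.67, adjusted p = 0.0502). Taking away the Nrf2 KO value as well, which asks whether the double loss exceeds the sum of the single losses, gave a median of -0.26, with 73 of 79 below 0. Here 24 members had an unadjusted p under 0.05, where 2412 of all 16656 genes did, and 0 were called, against 0.744% of all genes. The direct and the indirect estimates use different arrays for DKO over Atg7 cKO, but the labels do not say whether the RNAs differed.

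The promoters of the 3 genes called in the direct comparison, and of Ndufs4, which was called in no comparison, are shown to let a reader see what their start regions hold. Each window, from RefSeq for the build GRCm38.p6, runs from 250 bases before to 50 after the gene's start, 5′ to 3′ on the gene's strand. Capitals mark matches, on either strand, to the motifs searched: GCGCATGCG (the factor NRF1, which is not Nrf2), CCGGAAGT (ETS factors such as GABP), AAGATGGCG (YY1), TCAAGGTCA (ERR) and TGACNNNGC (the antioxidant response element that Nrf2 binds). For Atp5c1, which has several listed starts, the window holding chr2:10080383-10080682 is given.

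Ndufa11: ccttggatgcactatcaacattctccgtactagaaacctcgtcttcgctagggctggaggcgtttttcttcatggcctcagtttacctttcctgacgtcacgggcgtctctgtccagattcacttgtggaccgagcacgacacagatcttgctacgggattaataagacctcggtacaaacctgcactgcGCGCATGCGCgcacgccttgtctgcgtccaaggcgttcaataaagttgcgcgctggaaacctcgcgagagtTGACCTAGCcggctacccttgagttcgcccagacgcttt

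Uqcrc1: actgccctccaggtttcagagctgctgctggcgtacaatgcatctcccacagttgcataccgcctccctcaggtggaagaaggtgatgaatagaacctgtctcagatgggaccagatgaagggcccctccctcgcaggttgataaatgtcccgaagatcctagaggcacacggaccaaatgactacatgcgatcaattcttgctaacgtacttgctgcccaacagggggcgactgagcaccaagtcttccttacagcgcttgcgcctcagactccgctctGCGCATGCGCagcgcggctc

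Atp5c1: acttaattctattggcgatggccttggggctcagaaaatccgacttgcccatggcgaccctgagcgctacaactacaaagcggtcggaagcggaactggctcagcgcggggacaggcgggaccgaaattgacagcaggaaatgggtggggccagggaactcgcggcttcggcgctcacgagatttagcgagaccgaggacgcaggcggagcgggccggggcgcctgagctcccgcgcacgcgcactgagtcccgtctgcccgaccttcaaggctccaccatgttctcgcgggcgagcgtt

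Ndufs4: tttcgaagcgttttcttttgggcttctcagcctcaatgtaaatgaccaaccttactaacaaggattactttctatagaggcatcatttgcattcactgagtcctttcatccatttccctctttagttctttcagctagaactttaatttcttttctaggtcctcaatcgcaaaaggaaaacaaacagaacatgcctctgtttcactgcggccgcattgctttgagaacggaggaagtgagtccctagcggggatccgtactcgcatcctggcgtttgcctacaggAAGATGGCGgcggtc

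Ndufa11 (chr17:56717512-56717811, plus strand) held 2 overlapping NRF1 matches, 1 on each strand, and an antioxidant response element match, Uqcrc1 (chr9:108936398-108936697, plus strand) held 2 overlapping NRF1 matches, Ndufs4 (chr13:114388045-114388344, minus strand) held a YY1 match, and Atp5c1 (minus strand) held none of the 5. Of the 82 genes, 67 had a promoter in the table, in 73 windows. An NRF1 match stood in 8 of these windows, against 575, or 1.75%, of all 32851 windows, and a YY1 match in 12.3%, against 1.4%. The ETS motif stood in 6.8%, against 3.89%, the ERR motif in 2.7%, against 0.42%, and the antioxidant response element in 13.7%, against 12.39%. A match is a description of letters only.

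Other mitochondrial gene lists were counted in the same way, with loess. Over all genes, 15.9% were lower and 21.2% higher in DKO, and 16.2% were lower and 23.3% higher in Atg7 cKO. Of 13 complex I assembly factors, 8 were lower in DKO and 4 in Atg7 cKO, among them Ndufaf1 (-0.76 in DKO and -0.58 in Atg7 cKO) and Ecsit (-0.74 in DKO and -0.52 in Atg7 cKO). Of 23 assembly factors of the other complexes measured, 12 were lower and 1 higher in DKO, and 4 were lower and 3 higher in Atg7 cKO, where the 17.4% that were lower lay near the share of all genes. Cox19, a copper-handling factor of complex IV, was higher in both, at 0.38 in DKO and 1.01 in Atg7 cKO, and Cox16 was lower in both, at -0.31 in DKO and -0.70 in Atg7 cKO.

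Among 8 genes that carry electrons or feed them to ubiquinone, 5 were lower and 0 higher in DKO, and 5 were lower and 2 higher (Cycs and Gpd2) in Atg7 cKO. Prodh, proline dehydrogenase, fell by 2.13 in DKO and by 1.81 in Atg7 cKO. Etfdh, which passes electrons from fatty acid oxidation to ubiquinone, fell by 0.94 in DKO and by 0.93 in Atg7 cKO. Set directly against Atg7 cKO, DKO had -0.38 for Prodh (adjusted p = 0.564) and -0.03 for Etfdh (adjusted p = 0.924).

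Of 13 genes of the tricarboxylic acid cycle, 9 were lower and 0 higher in DKO, and 2 were lower and 3 higher in Atg7 cKO, where the shares of 15.4% and 23.1% lay near those of all genes. Sucla2, a subunit of succinyl-CoA synthetase, had -0.69 in DKO and -0.44 in Atg7 cKO, and Idh3b, a subunit of isocitrate dehydrogenase, had -0.87 in DKO and -0.43 in Atg7 cKO. Among 16 regulators of mitochondrial transcription measured, 8 were lower and 1 higher in DKO, and 5 were lower and 1 higher in Atg7 cKO. Tfb2m, which starts transcription of mitochondrial DNA, had -0.78 in DKO and -0.59 in Atg7 cKO, and Gabpa, an ETS factor, had -0.48 in DKO and -0.52 in Atg7 cKO. Nrf1 was at 0.01 in DKO and -0.07 in Atg7 cKO, and was called in neither.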

How the data were processed

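RNA from the livers was measured on 16 2-colour Agilent mouse arrays, which form 8 dye-swapped experiments. Scanner files were used for experiments 1 to 6, and the value table for experiments 7 and 8. The fit of the direct comparison took all 8 experiments from the value table, without loess. Per the labels' protocols, total RNA was amplified with Agilent's Low RNA Input kit. Spots were read with Feature Extraction 9.5.1, per the submitters' processing notes. The deposited intensity values are mean and background signals per spot, per the file headers. The deposited value table holds log10 ratios of red over green, which matched the scanner's log ratios to within 0.005 on the 12 arrays that have both; they were multiplied into log2 ratios. Per array, median signals ran from 41.8 to 55.6 over backgrounds of 34.5 to 36.5, with 43.4% to 57.2% of spots well above background and at most 1 saturated spot. The number of arrays limits the precision.

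From these values, signals were background-corrected (normexp, offset 50) and loess-scaled within arrays in limma 3.58.1 (R 4.3.3). Control and outlier spots were left out. Each dye swap was averaged to 1 replicate. A probe was kept when well above background in at least 4 of 24 channels, and the brightest kept probe stood for its gene. Group means over experiments 1 to 6 (3 residual degrees of freedom) or all 8 experiments (4, for the direct comparison) were fitted with lmFit and eBayes and adjusted over all 16656 genes by Benjamini-Hochberg. The fit was tested on simulated data. Gene names came from RefSeq by accession or symbol for 24844 and 6045 probes, and 10285 kept the file's name. Alternatives were other backgrounds, scalings, filters, probe rules, blocks and left-out experiments. The members and lists were chosen with earlier results of these data known. Named were all members of complexes II and III, the 5 with the largest called values in complexes I, IV and V, the core, isoform, F1 and ring lists, called or largest members in the other comparisons, and the 2 largest called genes in Atg7 cKO of each other list. Ndufa2, Ndufa8, Ndufs4, Cox7a2l, Emc8, Dmac2, Dmac2l and Nrf1 were named after their values were seen. The motifs searched were also chosen then. Values of 1 complex I gene are not reported here by name, though it enters the counts and medians.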

Additional observations from a re-analysis of the deposited data

How the results depend on the processing

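The alternatives kept the direction of the member medians except in Atg7 cKO against wild type, where median centring over all spots gave 0.15. That setting also moved the medians to -0.32 in DKO and 0.18 in Nrf2 KO, while centring over the genes tested, an alternative chosen after seeing the data, gave -0.06 in Atg7 cKO and 0.13 in Nrf2 KO. The members called in Atg7 cKO numbered 39 with loess (3 higher, 36 lower), 20 with the scanner's log ratios (2 higher, 18 lower), 9 with centring over all spots (8 higher, 1 lower) and 12 with centring over genes tested (5 higher, 7 lower). Those in DKO numbered 66 with loess (1 higher, 65 lower) and 23 with centring over all spots (3 higher, 20 lower). Over all genes tested, the shares called in Atg7 cKO, in the same order of settings, were 39.5%, 40.6%, 46% and 50.7%. In DKO they were 37.1% with loess and 36.6% with centring over all spots. Leaving out 1 experiment gave 8 to 37 calls in Atg7 cKO (medians -0.34 to -0.16), with 19.3% to 35.7% of all genes called. In DKO it gave 23 to 67 calls (medians -0.56 to -0.44), with 17.2% to 37.4% of all genes called. In Nrf2 KO it gave medians of 0.03 to 0.09. In the direct comparison it gave 0 to 2 calls (medians -0.49 to -0.13), experiments 7 and 8 alone gave 0, and a fit of single arrays with a dye effect and the experiment as a random block gave 35 (2 higher, 33 lower). That fit gave 20 calls for DKO minus Atg7 cKO through wild type and 9 for the excess over the sum of single losses. It called 25.6% of all genes in the direct comparison, 14.9% for the difference through wild type and 7.25% for the excess. For the difference through wild type, which had 0 calls, no filter on dim probes, probes above background in all channels and the set as a block gave 1 each, the mean of all kept probes gave 2, and leaving out 1 experiment gave 0 to 1. Of the 36 members lower in Atg7 cKO, centring over all spots turned the sign of 16, among them Cox7c (0.03), Atp5e (0.03), Atp5l (0.09), Atp5g2 (0.15), Cox4i1 (0.11), Cox6b1 (0.22) and Ndufv1 (0.05), and centring over genes tested that of 2, Cox6b1 (0.01) and Ndufa11 (0.04). The cause of these changes was not tested. No paired analysis was possible because the labels' experiment numbers differ between the groups, apart from the low or high Xist set as a block, which gave 68 calls in DKO and 41 in Atg7 cKO. With that block 44.6% of all genes were called in DKO and 47.1% in Atg7 cKO. Signal near background limits Cox6a2 and Cox8b.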

Other observations

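Probes for transcripts of mitochondrial DNA, which encodes the remaining subunits of the chain, lay outside the gene set. CYTB, the cytochrome b of complex III, had -0.92 and -0.48 in DKO and -0.66 and -0.84 in Atg7 cKO, with fits of -0.70 in DKO (limma, adjusted p = 0.00932) and -0.75 in Atg7 cKO (adjusted p = 0.00721). The experiments of the genotypes overlapped. COX2, a catalytic subunit of complex IV, had -0.59 and -0.23 in DKO and -0.12 and -0.31 in Atg7 cKO. It was lower in DKO (-0.41, adjusted p = 0.0284) and not called in Atg7 cKO (-0.22, adjusted p = 0.139). The other probes placed on mitochondrial DNA were called lower in both genotypes. Their fits were -0.40 and -0.45 in DKO (adjusted p of 0.0412 and 0.0361), and -0.42 and -0.49 in Atg7 cKO (adjusted p of 0.0344 and 0.0278). All these values are with loess. These probes were chosen after their values were seen.

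With loess, 21.2% of all genes were higher and 15.9% lower in DKO, and 23.3% were higher and 16.2% lower in Atg7 cKO. Of 17 genes of mitochondrial import and carriers measured, 3 were higher (17.6%, near the share of all genes) and 7 lower (41.2%) in DKO. In Atg7 cKO 6 were higher (35.3%) and 1 lower (5.88%). Of 8 genes of ubiquinone synthesis measured, 3 were lower in DKO (37.5%), and 3 were higher (37.5%) and 1 lower (12.5%) in Atg7 cKO. The counts of both lists are given with loess only. Slc25a4, a carrier of the first list, had 0.27 and 0.40 in DKO, 0.74 and 0.74 in Atg7 cKO, and -0.38 and -0.27 in the direct comparison. Slc25a5, which exchanges ADP and ATP across the inner membrane, had -0.38 and -0.27 in DKO and 0.87 and 0.55 in Atg7 cKO. It was called in both (-0.33, limma adjusted p = 0.035 in DKO, and 0.71, adjusted p = 0.00336 in Atg7 cKO). The direct comparison gave -1.25 and -1.03 (fit -1.14, adjusted p = 0.00635). Coq7, an enzyme of ubiquinone synthesis, had -0.42 and -0.01 in DKO and 0.82 and 0.92 in Atg7 cKO. It was higher in Atg7 cKO (0.87, adjusted p = 0.00326), was not called in DKO (-0.21, adjusted p = 0.167), and was lower in the direct comparison, at -1.38 and -0.91 (fit -1.15, adjusted p = 0.0102). Coq8a, of the same list, had -1.83 and -0.86 in DKO, -0.99 and -1.27 in Atg7 cKO, and -0.86 and 0.52 in the direct comparison.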
